A study of Homo sapiens with 3 samples.

Results

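The proteasome genes were followed in 3 RNA sequencing libraries of KYSE30, a cell line long established from a human squamous carcinoma of the esophagus. Members were all genes whose symbol starts with PSMA to PSMG and a digit, and 101 symbols of the table met that rule. Of these, 44 pseudogenes and 7 non-coding genes were left out, and 50 protein-coding genes remained. PSMC3IP and PSME3IP1 share the spelling but encode no subunit, so 48 of the 60554 genes in the table were described, on 17 chromosomes. They comprise 8 alpha ring genes, 8 beta ring genes, 3 immunoproteasome genes, 6 regulatory ATPases, 11 regulatory non-ATPases, 5 activators and inhibitors, and 7 assembly chaperones. Of the 48, 46 passed the filter on low counts. PSMA8, an alpha subunit of testis, and PSMB11, a beta subunit of the thymus, had a count of 0 in all 3 libraries, which allows up to 3 counts in each.

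The design compares KYSE30 cells depleted of SNORD12B, a small nucleolar RNA of the box C/D class that guides RNA methylation, with control cells. Each of 2 stable lines carried a different pLKO.1 shRNA against SNORD12B, and 1 stable line served as control, with 1 library a line and no replicate culture. All 3 lines received virus for 24 hours and then blasticidin (5 ug/mL for 2 weeks) to select transduced cells, in medium with 10% serum. The genotype label gives the control as vector, whereas the protocol describes a scrambled shRNA without a target. The labels do not say whether a line is a pool or a clone. The libraries labelled shRNA 1 and shRNA 2 are called sh1-labelled and sh2-labelled here.

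Total counts were 15146805 and 17336936 in the sh1- and sh2-labelled libraries, and 15473922 in the control. SNORD12B itself was counted 15 times and 1 time in the sh1- and sh2-labelled libraries, and 7 times in the control. The count ratio to the control was 2.16 for the sh1-labelled library (95% exact interval 0.831 to 6.28) and 0.126 for the sh2-labelled library (0.0028 to 0.982). The first of these goes against its label as far as so few reads of a short RNA go, so each direction below is that of a labelled library. In each library, 9 of 10 squamous epithelial markers reached 1 CPM, the usual count scaled to library size, here by TMM. The exception was KRT5, a basal keratin, with 3, 2 and 1 counts in the sh1- and sh2-labelled libraries and in the control. The summed squamous markers stood at 1290 and 1780 CPM in the sh1- and sh2-labelled libraries and at 1900 CPM in the control. Fewer cells of a type and less RNA per cell cannot be told apart in such bulk libraries.

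The proteasome degrades proteins tagged with ubiquitin. Its barrel-shaped core has outer rings of alpha subunits, which gate the entrance, and inner rings of beta subunits, a few of which cut peptide bonds. A regulatory particle of ATPases and non-ATPase subunits binds, unfolds and deubiquitinates the substrate, and other activators can cap the core in its place. Interferon brings in an alternative set of catalytic beta subunits, the immunoproteasome, whose products suit presentation on MHC class I molecules. When proteasome activity falls short, the transcription factor NFE2L1 raises subunit genes together through antioxidant response elements.

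In the sh2-labelled library, most subunits stood slightly below the control and the immunoproteasome genes stood above it. In the sh1-labelled library, most subunits stood slightly above the control and the immunoproteasome genes below it. The summed level of the 48 members was 7353 CPM with the sh1 label and 5766 CPM with the sh2 label, against 6852 CPM in the control. The summed level of PSMB8, PSMB9 and PSMB10 was 41.89 CPM with the sh1 label and 94.34 CPM with the sh2 label, against 59.11 CPM in the control.

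No proteasome gene was called when both shRNA libraries were set against the control. In edgeR's quasi-likelihood test with Benjamini-Hochberg adjustment, 0 members were called higher and 0 lower, where 0% of the 17801 genes tested were called in either direction. At an unadjusted p under 0.05 there were 0 members in either direction, where 0.41% of all genes tested were higher and 0.921% lower. The smallest unadjusted p of a member was 0.254, for PSMD9, and the adjusted p of every member was 1. DESeq2 and limma-voom called 0 members too. These p-values reflect only how far the shRNA lines differ from each other, 1 library each, and treat the single control as equally variable. The values below are therefore described library by library, with exact intervals that cover counting error only, and have no test.

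Against the control, 32 of the 46 members were higher and 14 lower with the sh1 label, where 51.5% of all genes tested were higher and 48.5% lower. The members' median log2 ratio there was 0.09, beside 0.01 over all genes tested. With the sh2 label, 7 members were higher and 39 lower, where 49.7% of all genes tested were higher and 50.3% lower. The median log2 ratio of the members was -0.18 in that library. The median of all genes tested was at 0.00 to 2 decimals. Both sets of ratios share the control library, and a deviation of that single library was not tested.

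Few of these differences were large. At least 1.5-fold higher with the sh1 label was 1 member (PSMG1), where 10.8% of all genes tested passed that fold, and 1 member (PSMB9) was at least 1.5-fold lower, where 12.7% did. With the sh2 label, 2 members (PSMB8 and PSMB10) were at least 1.5-fold higher, where 9.38% of all genes tested passed, and 2 (PSMA5 and PSMD9) were at least 1.5-fold lower, where 9.92% did. The members' shares in a direction, 2.17% with the sh1 label and 4.35% with the sh2 label, were thus below those of all genes. Among genes with a mean of at least 20 CPM, a level that 41 of the 46 members reach, 4.63% were at least 1.5-fold higher and 5.38% lower with the sh1 label, and 2.69% higher and 3.92% lower with the sh2 label. Of these 41 members, 1 was at least 1.5-fold higher and 1 lower with either label.

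**Figure D1:**
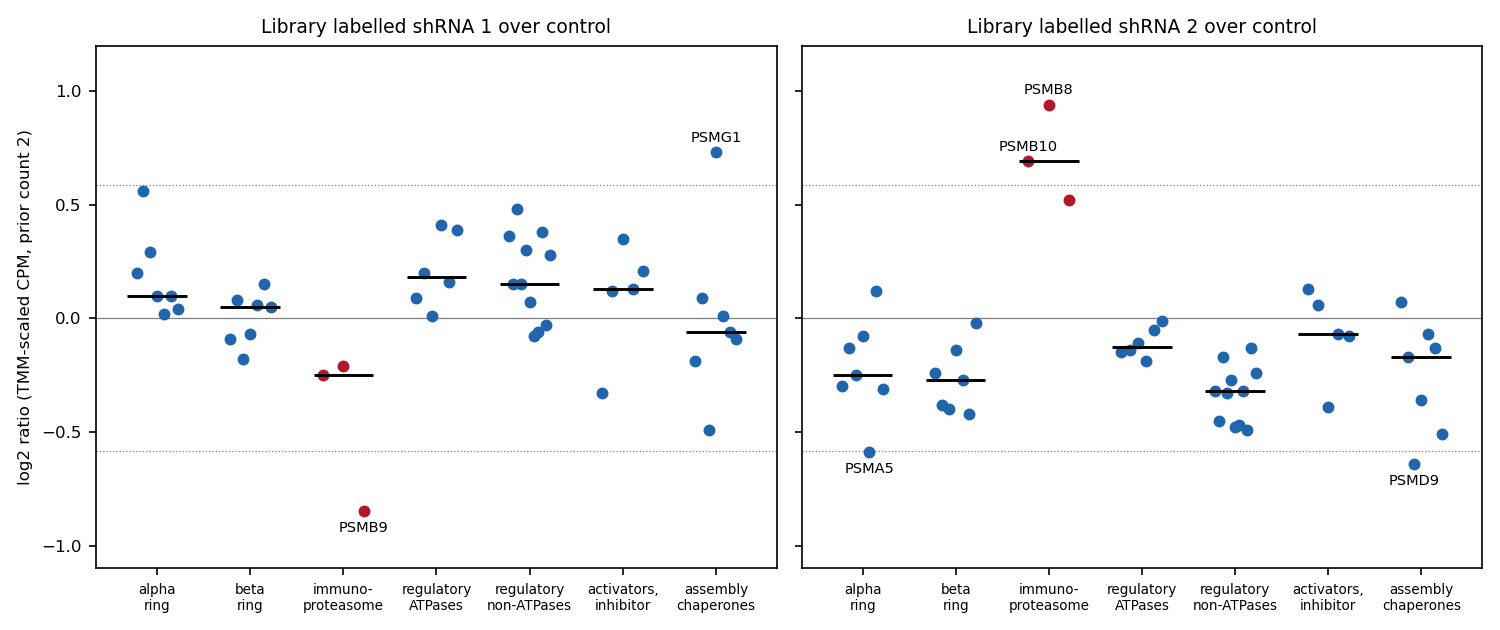
Log2 ratio to the control (y axis) of each of the 46 proteasome genes by class (x axis), for the sh1-labelled library (left panel) and the sh2-labelled library (right panel). Points are genes, immunoproteasome genes in red, thick bars are class medians and dotted lines mark 1.5-fold; the immunoproteasome median is -0.25 in the left panel and 0.69 in the right, opposite in sign to the alpha ring's 0.10 and -0.25.

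The alpha ring genes had a median log2 ratio to the control of 0.10 with the sh1 label and of -0.25 with the sh2 label. With the sh1 label all 7 measured members exceeded the control, and 6 of 7 were below it with the sh2 label. PSMA7, the alpha subunit with the most counts per kilobase, stood at 247.7 and 194.0 CPM with the sh1 and sh2 labels, against 241.3 CPM in the control. PSMA5 stood at 128.6 and 83.7 CPM with the sh1 and sh2 labels, against 126.4 CPM in the control. The sh2-labelled library was thus the low one for both, and the ratio of PSMA5 to the control there was 0.662 (0.618 to 0.709). PSMA2 stood at 6.58 and 4.02 CPM with the sh1 and sh2 labels, against 4.43 CPM in the control. Its ratio to the control with the sh1 label, 1.49 (1.08 to 2.05), was the highest of the ring and rested on 100 against 68 counts. PSMA2 is uncertain, since a pseudogene on the opposite strand, with 24 and 7 counts with the sh1 and sh2 labels and 9 counts in the control, overlaps 20% of its exonic bases. Of the bases of its principal transcript, 1.61% have an opposite-strand overlap. PSMA6 stood at 8.29 and 8.45 CPM with the sh1 and sh2 labels, against 7.75 CPM in the control, and the intervals of both its ratios to the control include 1.

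The constitutive beta ring genes differed less from the control with the sh1 label, where their median log2 ratio was 0.05. With the sh2 label it was -0.27, and all 7 measured members were below the control. PSMB3, a structural beta subunit without a catalytic site, stood at 152.8 and 130.7 CPM with the sh1 and sh2 labels, against 172.8 CPM in the control. It was lower than the control in both shRNA libraries, with ratios of 0.884 (0.836 to 0.935) and 0.756 (0.715 to 0.8). The fit over the pair gave a log2 fold change of -0.29 (SE 0.30, adjusted p = 1 by edgeR).

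Of the catalytic subunits of the constitutive core, PSMB6, with caspase-like activity, stood at 160.2 and 108.0 CPM with the sh1 and sh2 labels, against 144.6 CPM in the control. PSMB5, with chymotrypsin-like activity, stood at 83.2 and 65.9 CPM with the sh1 and sh2 labels, against 79.8 CPM in the control. PSMB7, with trypsin-like activity, stood at 306.4 and 291.5 CPM with the sh1 and sh2 labels, against 296.2 CPM in the control. The control lay between the shRNA libraries for all 3. The ratio of the sh2-labelled library to the control was 0.747 (0.702 to 0.794) for PSMB6 and 0.826 (0.762 to 0.896) for PSMB5, whereas that of PSMB7 was 0.984 (0.945 to 1.02).

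The immunoproteasome genes showed the opposite order of libraries. PSMB8, PSMB9 and PSMB10 encode the interferon-inducible catalytic subunits that replace PSMB5, PSMB6 and PSMB7. PSMB8 (ENSG00000204264.8, chromosome 6, 32840717 to 32844703, minus strand of hg38) stood at 11.4 and 25.4 CPM with the sh1 and sh2 labels, against 13.2 CPM in the control. PSMB9 (ENSG00000240065.7, chromosome 6, 32844136 to 32859585, plus strand) stood at 15.6 and 40.5 CPM with the sh1 and sh2 labels, against 28.3 CPM in the control. PSMB10 (ENSG00000205220.11, chromosome 16, 67934502 to 67937087, minus strand) stood at 14.8 and 28.4 CPM with the sh1 and sh2 labels, against 17.6 CPM in the control. For each gene the sh2-labelled library was highest and the sh1-labelled library lowest, with the control between them.

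With the sh2 label, the ratio to the control was 1.92 for PSMB8 (1.62 to 2.28), 1.43 for PSMB9 (1.27 to 1.62) and 1.62 for PSMB10 (1.39 to 1.88). With the sh1 label, it was 0.553 for PSMB9 (0.47 to 0.649), while those of PSMB8 and PSMB10 were 0.866 (0.703 to 1.07) and 0.842 (0.702 to 1.01), with intervals that include 1. Set against each other, the sh1-labelled library had 0.45 of the PSMB8 level of the sh2-labelled library (0.376 to 0.538), 0.386 of its PSMB9 level (0.332 to 0.448) and 0.521 of its PSMB10 level (0.443 to 0.611). The fit over the pair gave log2 fold changes of 0.48 (SE 0.51), -0.01 (SE 0.52) and 0.30 (SE 0.46) for PSMB8, PSMB9 and PSMB10, all with adjusted p = 1 by edgeR.

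Measurement limits touch PSMB8 and PSMB10. PSMB8 is overlapped on 21.2% of its exonic bases, though on no base of its principal transcript, by the opposite-strand gene PSMB8-AS1. That gene had 284 and 627 counts with the sh1 and sh2 labels and 391 counts in the control. Reads on the overlapped bases cannot be told apart with certainty. PSMB10 shares 45.3% of its principal transcript with a read-through gene on the same strand. PSMB9 has no opposite-strand overlap. It shares 5.66% of its exonic bases with PSMB8-AS1 on its strand, but no base of its principal transcript. Without the members that have opposite-strand overlap, the immunoproteasome median with the sh1 label was -0.55 over 2 genes, and 1 member, PSMB10, was at least 1.5-fold higher with the sh2 label.

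Per kilobase of exon, the inducible subunits were a minority of each catalytic pair in every library. PSMB8 made up 10.8% (9.31% to 12.4%) of the PSMB8 and PSMB5 level with the sh1 label and 25.3% (23.3% to 27.5%) with the sh2 label, against 12.7% (11.1% to 14.5%) in the control. PSMB9 made up 4.40% and 15% of its pair with PSMB6 with the sh1 and sh2 labels, against 8.45% in the control. PSMB10 made up 4.45% and 8.59% of its pair with PSMB7, against 5.41% in the control. The sh2-labelled library had the highest inducible share in all 3 pairs. These shares depend on the length used. By the length of the principal transcript, a choice added after seeing the data, the PSMB9 share was 9.62% and 29% with the sh1 and sh2 labels, against 17.6% in the control, and the order of the libraries was the same for all 3 pairs.

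**Figure D2:**
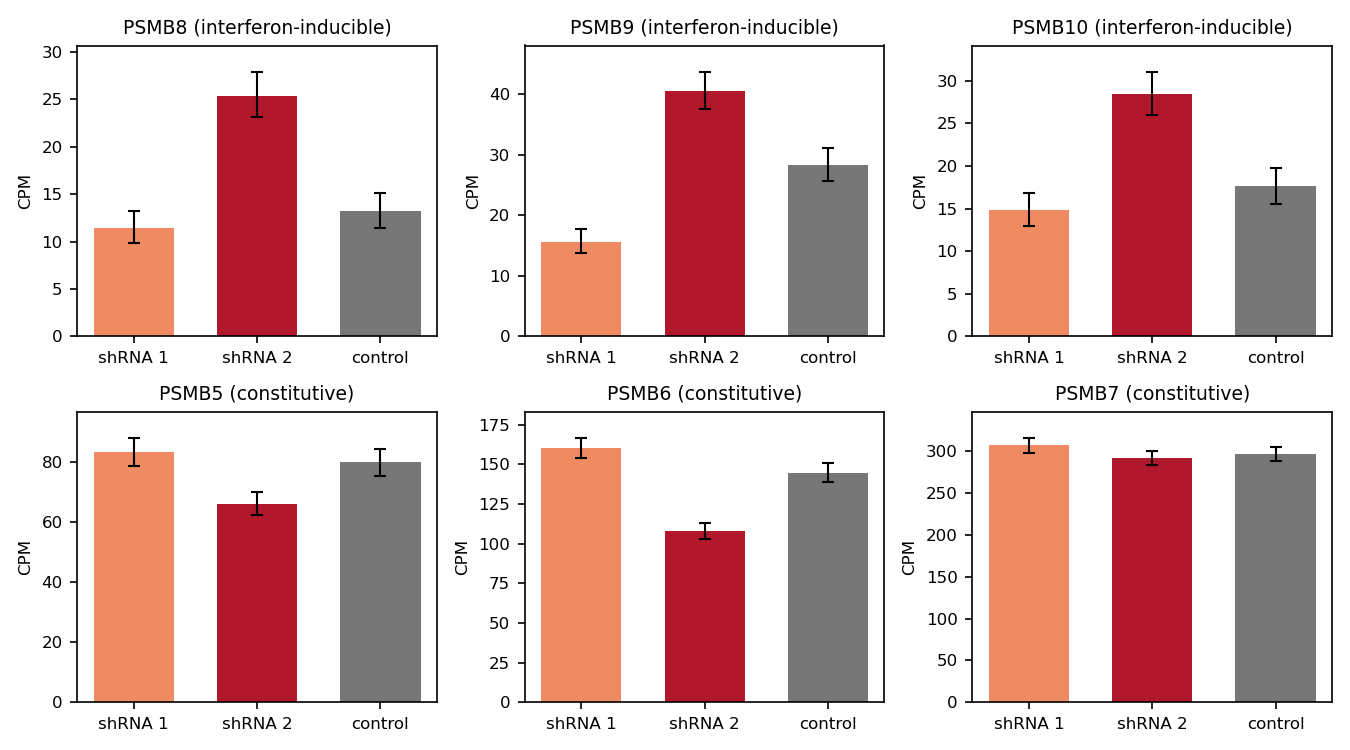
CPM (y axis, from 0) of the 3 interferon-inducible catalytic subunits (top row) and of the constitutive subunits they replace (bottom row), in the sh1- and sh2-labelled libraries and in the control (x axis). Bars are single libraries and whiskers are 95% exact counting intervals; PSMB8 stands at 11.4, 25.4 and 13.2 CPM, while PSMB6 is lowest in the sh2-labelled library at 108.0 CPM.

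Promoter sequence is shown for the members whose window holds GAAAGCGAAA on either strand, beside that of TAP1, a neighbour of PSMB9. These letters are a copy of an element known to bind interferon regulatory factors. RefSeq windows (GRCh38.p14) of 250 bases before to 50 bases after a start were found for 42 members, in 51 windows. The letters searched were GAAA, any 2 bases and GAAA again, on both strands. They occurred in 13.7% of the members' windows and in 3.57% of the 35116 windows of all genes, in 7 members: PSMA4, PSMB4, PSMB8, PSMB10, PSME1, PSME2 and PSMG4. PSMB8, PSMB10, PSME1, PSME2 and PSMG4 held the same GAAAGCGAAA or its reverse complement TTTCGCTTTC, as did TAP1. TAP1 encodes a subunit of the peptide transporter, and its nearest start lies 488 bases from that of PSMB9. The narrower letters GAAAGCGAAA were picked from the matches found, and their share of all windows was not counted. Capitals mark the match, and each sequence is written 5′ to 3′ on the strand of its gene, in the order PSMB8 (chr6:32844018-32844091, minus), PSMB10 (chr16:67936822-67936911, minus), PSME1 (chr14:24136159-24136223, plus), PSME2 (chr14:24146589-24146678, minus), PSMG4 (chr6:3258874-3258963, plus) and TAP1 (chr6:32853783-32853872, minus).
PSMB8: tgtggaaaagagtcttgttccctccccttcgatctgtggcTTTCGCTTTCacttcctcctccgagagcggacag
PSMB10: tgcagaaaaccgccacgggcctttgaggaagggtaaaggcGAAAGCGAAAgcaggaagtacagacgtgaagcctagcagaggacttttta
PSME1: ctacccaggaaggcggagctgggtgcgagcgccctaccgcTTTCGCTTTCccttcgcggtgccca
PSME2: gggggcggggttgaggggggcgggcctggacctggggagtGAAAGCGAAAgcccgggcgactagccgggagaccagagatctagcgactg
PSMG4: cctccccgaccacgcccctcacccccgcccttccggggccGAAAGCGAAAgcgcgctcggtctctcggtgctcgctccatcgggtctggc
TAP1: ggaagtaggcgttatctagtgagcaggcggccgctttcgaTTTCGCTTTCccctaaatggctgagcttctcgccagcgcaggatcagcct

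In the TAP1 window a further match to the letters searched overlaps the one in capitals. Of the genes shown, PSMB8, PSMB10, PSME1 and TAP1 were highest with the sh2 label and PSMG4 was lowest there. PSMA4 and PSMB4, whose matches are not shown, were also lowest there, at 221.5 and 283.0 CPM against 234.7 and 311.5 CPM in the control. The PSMB9 window, which begins at base 32853942 of chromosome 6, held no match to the letters searched. The TAP1 match shown lies outside that window, between the starts of TAP1 and PSMB9. The PSME2 ratio between the shRNA libraries has an interval that includes 1. A STAT element, TTCNNNGAA, which reads the same on both strands, occurred in 15.7% of the members' windows and in 7.66% of all windows. PSMB8 held it upstream of the match shown, without overlap. A match is a run of letters and does not show that a factor binds there.

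All 17 regulatory particle genes that the symbol rule covers were lower than the control in the sh2-labelled library, with a median log2 ratio of -0.24. Proteasome genes with other names, such as ADRM1 and SEM1 (log2 ratios of -0.06 and 0.03 there), are not among the 17. With the sh1 label, 14 of the 17 were above the control and the median was 0.16. In either library 0 of the 17 reached 1.5-fold, where, among genes with a mean of at least 20 CPM, between 2.69% and 5.38% did in a direction. This count is therefore near that background.

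Among the ATPases, which unfold substrates and drive them into the core, medians were 0.18 with the sh1 label and -0.13 with the sh2 label on the log2 scale. PSMC4 stood at 184.6 and 122.0 CPM with the sh1 and sh2 labels, against 139.2 CPM in the control, with log2 ratios to the control of 0.41 and -0.19. The exact intervals of both of its ratios exclude 1. PSMC6 stood at 99.8 and 75.7 CPM with the sh1 and sh2 labels, against 76.0 CPM in the control, so only the sh1-labelled library stood apart. PSMC3, the ATPase with the most counts per kilobase, stood at 248.6 and 228.9 CPM with the sh1 and sh2 labels, against 247.4 CPM in the control. PSMC1 is overlapped on 75.8% of its exonic bases by the opposite-strand gene NRDE2, and its level is uncertain.

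The non-ATPases, which bind ubiquitin chains and form the lid, had medians of 0.15 and -0.32 with the sh1 and sh2 labels. PSMD2, a large scaffold subunit of the base and the member with the most CPM, stood at 929.8 and 634.3 CPM with the sh1 and sh2 labels, against 887.2 CPM in the control. Its ratio to the control was 1.05 (1.02 to 1.07) with the sh1 label and 0.715 (0.697 to 0.733) with the sh2 label. The lid subunit PSMD12 stood at 185.3 and 118.1 CPM with the sh1 and sh2 labels, against 132.5 CPM in the control, and had the highest ratio of its class with the sh1 label, 1.4 (1.32 to 1.48). The lid subunit PSMD6 stood at 76.9 and 42.3 CPM with the sh1 and sh2 labels, against 59.2 CPM in the control, and had the lowest ratio of its class with the sh2 label, 0.713 (0.646 to 0.787). For both, the control lay between the shRNA libraries.

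PSMD3, also of the lid, was below the control in both, at 249.9 and 190.6 CPM with the sh1 and sh2 labels against 264.2 CPM in the control. PSMD7, which pairs with the deubiquitinase PSMD14, was nearly level, at 137.0 and 127.1 CPM with the sh1 and sh2 labels, against 139.6 CPM in the control, with an opposite-strand overlap on 30.7% of its exonic bases. The deubiquitinase PSMD14 itself, named after its values were seen, had log2 ratios to the control of 0.30 with the sh1 label and -0.27 with the sh2 label.

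The antioxidant response element TGACNNNGC, searched on both strands, occurred in 29.4% of the members' windows and in 13.3% of all windows. It was found in 15 members. Among genes with a window these were 2 of 6 ATPases, 3 of 10 non-ATPases, 4 of 6 assembly chaperones and 3 of 5 activators and inhibitors. The rest were 1 of 7 alpha ring, 1 of 5 beta ring and 1 of 3 immunoproteasome genes. With the sh1 label PSMB3, PSMB9, PSMD3, PSMD9 and PSME1 of the 15 were below the control, PSMB9 at a log2 ratio of -0.85, and the others above it. Of all 46 members 69.6% were above the control with that label, as were 51.5% of all genes tested. With the sh2 label PSMB9, PSME1 and PSME2 of the 15 were above the control and the others below it. Of all 46 members 84.8% were below the control with that label, as were 50.3% of all genes tested. The element's letters are shown for PSMD12 (chr17:67366694-67366782, minus) and PSMG1 (chr21:39183586-39183674, minus), which had the highest ratio of their classes with the sh1 label, with the match in capitals.
PSMD12: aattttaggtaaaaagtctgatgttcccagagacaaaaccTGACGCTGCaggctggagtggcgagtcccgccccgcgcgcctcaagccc
PSMG1: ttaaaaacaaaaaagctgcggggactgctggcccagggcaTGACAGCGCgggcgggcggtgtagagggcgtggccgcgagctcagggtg

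The activators differed among themselves. PSME1 and PSME2 encode the alpha and beta subunits of the interferon-inducible PA28 cap. PSME1 stood at 61.8 and 85.0 CPM with the sh1 and sh2 labels, against 77.7 CPM in the control, which is the order of the immunoproteasome genes. Its ratio to the control was 0.796 (0.73 to 0.868) with the sh1 label and 1.09 (1.01 to 1.18) with the sh2 label. PSME2 stood at 91.3 and 87.4 CPM with the sh1 and sh2 labels, against 84.0 CPM in the control, and its ratio between the shRNA libraries, 1.05 (0.971 to 1.12), has an interval that includes 1.

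PSME3, the nuclear PA28 gamma, had the largest differences of the class. It stood at 306.2 CPM with the sh1 label and 183.4 CPM with the sh2 label, against 240.1 CPM in the control, with ratios of 1.27 (1.22 to 1.33) and 0.764 (0.728 to 0.801). PSME4, which encodes the activator PA200, stood at 45.3 and 39.7 CPM with the sh1 and sh2 labels, against 41.5 CPM in the control, and its ratios to the control have intervals that include 1. PSMF1, the inhibitor PI31, stood at 151.2 and 124.0 CPM with the sh1 and sh2 labels, against 130.8 CPM in the control.

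The assembly chaperones were led by PSMG1. PSMG1 and PSMG2 encode the partners of a heterodimer that starts the alpha ring. PSMG1 (ENSG00000183527.11, chromosome 21, 39174769 to 39183851, minus strand of hg38) stood at 56.2 CPM with the sh1 label and 26.3 CPM with the sh2 label, against 33.9 CPM in the control. Its ratio to the control was 1.66 (1.49 to 1.85) with the sh1 label and 0.776 (0.683 to 0.882) with the sh2 label. PSMG2 stood at 99.2 and 93.5 CPM with the sh1 and sh2 labels, against 98.2 CPM in the control, and the intervals of both its ratios to the control include 1.

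PSMG3 and PSMG4 form the second chaperone pair of the alpha ring. PSMG3 stood at 48.3 and 45.9 CPM with the sh1 and sh2 labels, against 50.4 CPM in the control. PSMG4 stood at 17.9 and 13.3 CPM with the sh1 and sh2 labels, against 19 CPM in the control, with a ratio of 0.702 (0.588 to 0.837) for the sh2-labelled library. Its exons are overlapped on 15% of their bases by SLC22A23 on the opposite strand, though its principal transcript is not.

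PSMD5, PSMD9 and PSMD10 help to assemble the base of the regulatory particle. PSMD5 stood at 148.1 and 123.4 CPM with the sh1 and sh2 labels, against 139.0 CPM in the control. PSMD10, also known as gankyrin, stood at 57.1 and 68.1 CPM with the sh1 and sh2 labels, against 65 CPM in the control, lowest in the sh1-labelled library. PSMD9 stood at 4.60 and 4.14 CPM with the sh1 and sh2 labels, against 6.51 CPM in the control, from 70 and 72 counts against 100 counts. It was lower than the control in both shRNA libraries and had the largest fold change of any member over the pair, a log2 fold change of -0.57 (SE 0.47, adjusted p = 1 by edgeR).

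More members were past 1.5-fold between the shRNA libraries than between either of them and the control. With the sh1 label, 40 of the 46 members were above the sh2-labelled library and 6 below it, where 50.1% of all genes tested were above and 49.9% below. At least 1.5-fold higher were 9 members, 19.6% of the 46, where 14.8% of all genes tested passed that fold. These were PSMG1, PSMD6, PSME3, PSMA2, PSMD1, PSMD12, PSMA5, PSMD11 and PSMC4. At least 1.5-fold lower were 3, 6.52% of the 46, where 15.8% of all genes tested did, and these were PSMB8, PSMB9 and PSMB10. Among genes with a mean of at least 20 CPM, 10.2% were at least 1.5-fold higher and 8.36% lower. The members' median log2 ratio between the shRNA libraries was 0.31, beside 0.00 over all genes tested. By class it was 0.50 for the alpha ring, 0.22 for the beta ring, 0.29 for the ATPases, 0.55 for the non-ATPases, 0.19 for activators and inhibitor, 0.15 for assembly chaperones and -1.14 for the immunoproteasome.

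The widest of these ratios was that of PSMG1, 2.14 (1.91 to 2.4), on the upper side, and that of PSMB9, 0.386, on the lower side. PSMD6 had a ratio of 1.82 (1.66 to 2.0) and PSME3 one of 1.67 (1.6 to 1.75). Apart from PSMB8, PSMB9 and PSMB10, only PSME1, PSMD10 and PSMA6 were lower with the sh1 label than with the sh2 label, and the interval of PSMA6 includes 1. Each ratio compares 1 library with 1 library and has no replicate check.

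**Figure D3:**
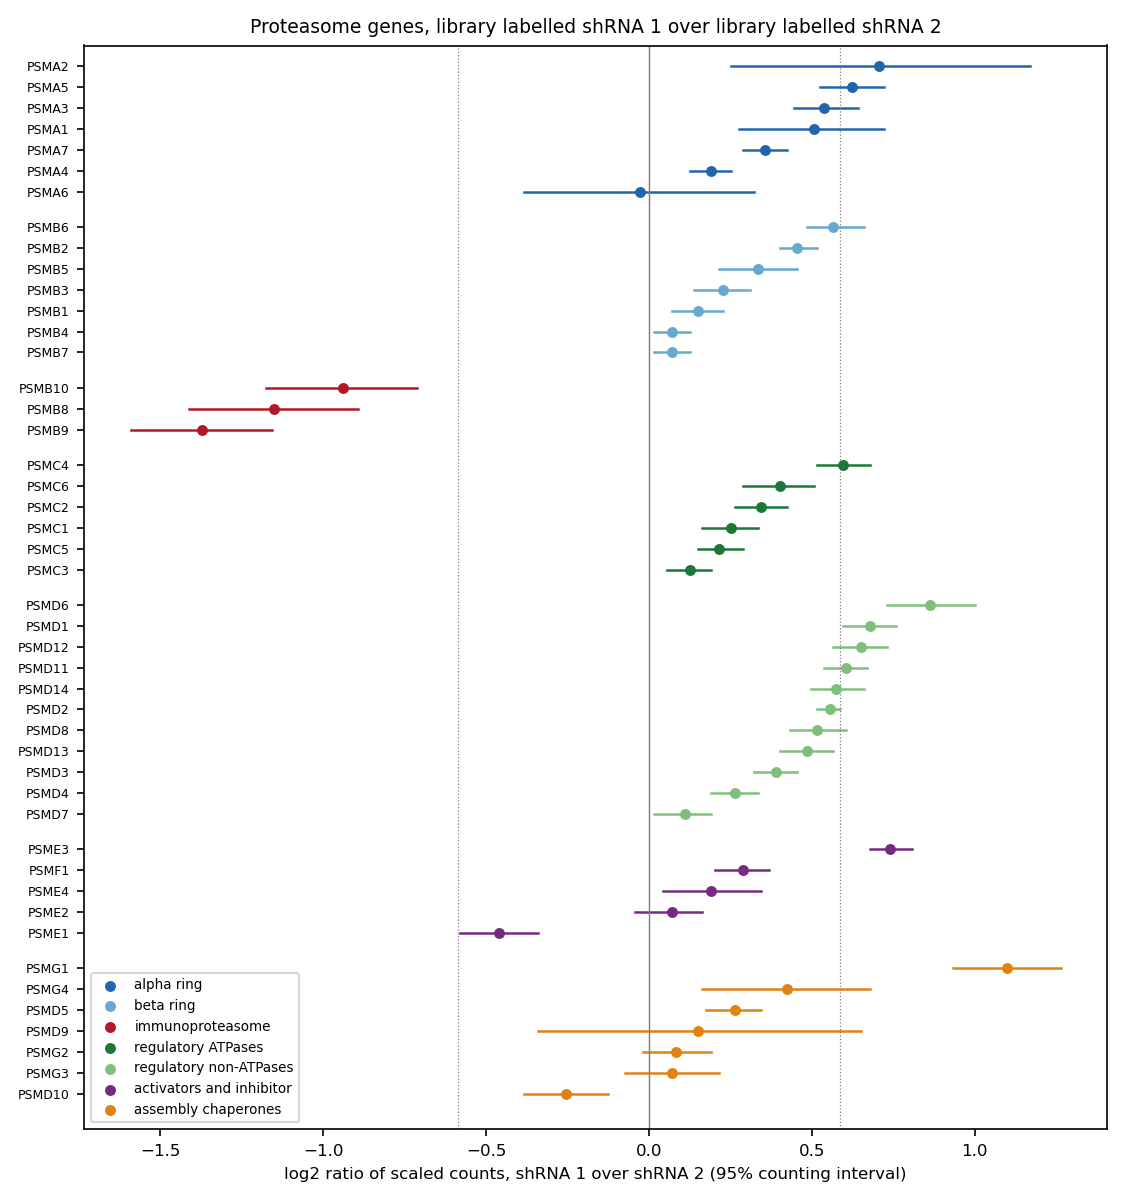
Log2 ratio of the sh1-labelled library to the sh2-labelled library (x axis) for each of the 46 proteasome genes, grouped and coloured by class (y axis). Points are ratios of scaled counts, lines are 95% exact counting intervals and dotted lines mark 1.5-fold; PSMB8, PSMB9 and PSMB10 lie far to the left and 40 of the 46 genes lie to the right of 0.

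Genes that belong to the proteasome or act with it under other names had medians near those of the members. The 12 genes of that list had a median log2 ratio to the control of 0.14 with the sh1 label and of -0.12 with the sh2 label, with 8 and 3 members above it. UCHL5, a deubiquitinase bound to the regulatory particle, stood at 72.7 and 34.9 CPM with the sh1 and sh2 labels, against 46.0 CPM in the control, and was the 1 member of the list (8.33%) at least 1.5-fold higher with the sh1 label, where 10.8% of all genes tested were. IPO9, an importin that carries proteasomes into the nucleus, stood at 196.0 and 130.2 CPM with the sh1 and sh2 labels, against 187.1 CPM in the control. ECPAS, a scaffold that binds proteasomes, was above the control in both, at 203.5 and 183.5 CPM with the sh1 and sh2 labels, against 147.5 CPM. UBE3C, a ubiquitin ligase bound to proteasomes, was below it in both, at 109.5 and 88.3 CPM with the sh1 and sh2 labels, against 119.1 CPM.

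The 9 genes of the NFE2L1 pathway had medians of -0.08 and 0.04 with the sh1 and sh2 labels. NFE2L1 itself stood at 166.2 and 233.9 CPM with the sh1 and sh2 labels, against 195.8 CPM in the control, an order opposite to that of most subunits. NFE2L2, its relative in the oxidative stress response, stood at 99.0 and 123.3 CPM with the sh1 and sh2 labels, against 88.5 CPM in the control. MAFF, a small MAF partner of both, stood at 30.1 and 43.2 CPM with the sh1 and sh2 labels, against 51.2 CPM in the control. It was the 1 gene of the list (11.1%) at least 1.5-fold lower with the sh1 label, where 12.7% of all genes tested were. VCP, the ATPase that extracts ubiquitinated proteins from membranes, stood at 365.6 and 292.2 CPM with the sh1 and sh2 labels, against 386.7 CPM in the control.

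The 13 genes of ubiquitin supply and delivery had medians of -0.08 and -0.15 with the sh1 and sh2 labels, and 0 of the 13 reached 1.5-fold, where between 9.38% and 12.7% of all genes tested did in a direction. UBA6, a ubiquitin-activating enzyme, was above the control in both libraries, at 155.8 and 131.2 CPM with the sh1 and sh2 labels, against 105.3 CPM. UBQLN4, a shuttle that brings ubiquitinated proteins to the proteasome, stood at 103.0 and 83.9 CPM with the sh1 and sh2 labels, against 111.6 CPM in the control.

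The 15 genes of interferon signalling and MHC class I loading had medians on the same sides of the control as the immunoproteasome. Their median log2 ratio was -0.12 with the sh1 label, where 11 of 15 were lower than the control and 1 (6.67%) was at least 1.5-fold lower, beside 48.5% and 12.7% of all genes tested. It was 0.49 with the sh2 label, where 14 of 15 were higher and 4 (26.7%) were at least 1.5-fold higher, beside 49.7% and 9.38% of all genes tested. TAP1, next to PSMB9, stood at 80.4 and 165.1 CPM with the sh1 and sh2 labels, against 117.6 CPM in the control. IRF1, a transcription factor that interferon induces, stood at 69.8 and 139.1 CPM with the sh1 and sh2 labels, against 126.0 CPM in the control, and was the gene at least 1.5-fold lower with the sh1 label. STAT2, of the interferon-activated complex, stood at 71.3 and 128.9 CPM with the sh1 and sh2 labels, against 77.7 CPM in the control. NLRC5, the transactivator of MHC class I genes, was above the control in both, at 32.9 and 44.0 CPM with the sh1 and sh2 labels, against 26.5 CPM.

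Immunoproteasome genes are also abundant in leukocytes. Of 7 leukocyte markers only CD68 reached 1 CPM, the summed level of the 7 was 1.84 and 2.41 CPM with the sh1 and sh2 labels, against 2.08 CPM in the control, and the pan-leukocyte gene PTPRC had 0 and 1 counts with these labels, against 0 counts in the control. Of 5 fibroblast markers, COL1A2, DCN, LUM and PDGFRA had 0 counts in all 3 libraries, while COL1A1 stood at 9.34 and 13.2 CPM with the sh1 and sh2 labels, against 15.9 CPM in the control. The 3 endothelial markers summed to 0.921 and 5.81 CPM with the sh1 and sh2 labels, against 3.71 CPM in the control, and PECAM1 had 0 and 1 counts with these labels, against 0 counts in the control. The summed leukocyte and endothelial levels thus had the order of the immunoproteasome genes. Of these markers only CD68 and CDH5 had that order singly. CD68 had 17 and 32 counts with the sh1 and sh2 labels, against 27 counts in the control. CDH5 had 13 and 91 counts, against 40 counts in the control. LYZ was highest with the sh1 label and VWF was highest in the control. The part of these levels in the result was not tested.

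**Figure D4:**
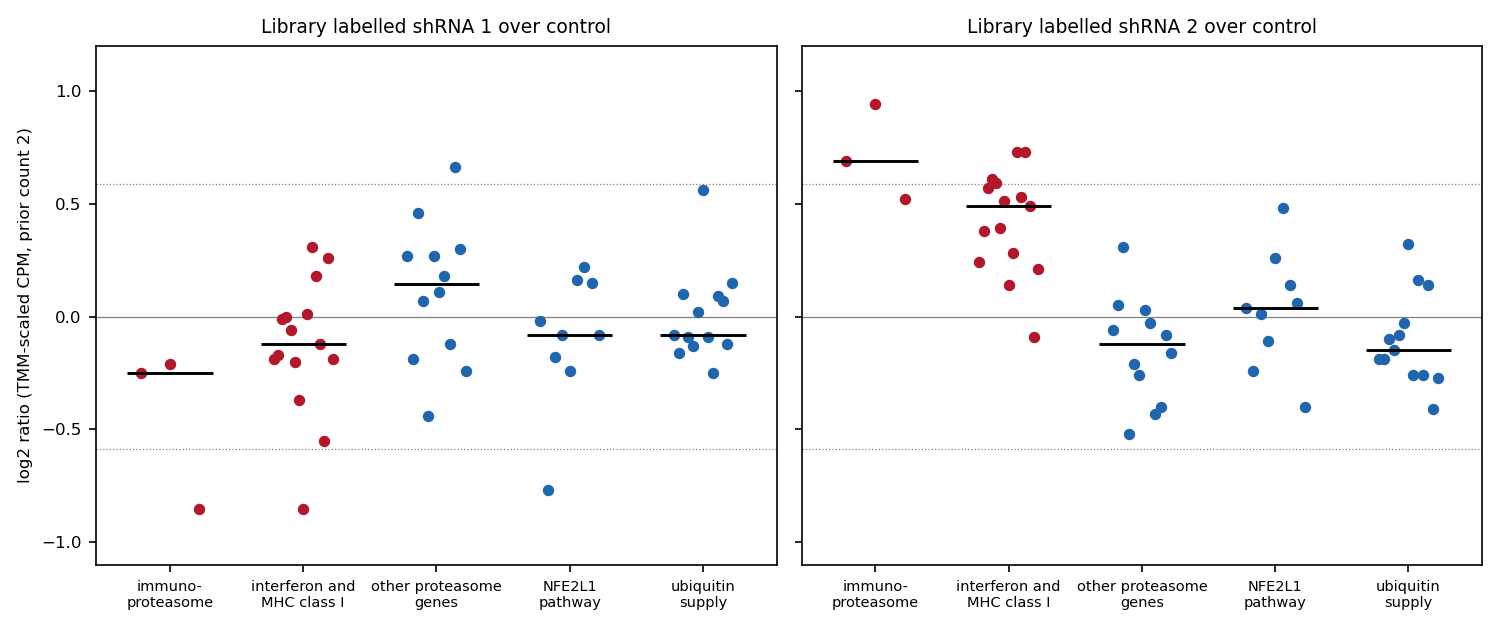
Log2 ratio to the control (y axis) of the immunoproteasome genes and of the genes of 4 related lists (x axis), for the sh1-labelled library (left panel) and the sh2-labelled library (right panel). Points are genes and thick bars are medians; the interferon and MHC class I list has a median of -0.12 in the left panel and 0.49 in the right, and dotted lines mark 1.5-fold.

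Subunits that are built into the core in equal numbers were not counted at equal levels. Averaged over the 3 libraries, PSMA7 stood at 130.0 CPM per kilobase of exon, whereas PSMA1 stood at 6.51 and PSMA2 at 0.939. PSMA6 stood at 1.27 and 1.30 CPM per kilobase with the sh1 and sh2 labels, against 1.19 in the control. By this length PSMB7 had 167.0 CPM per kilobase of exon, the highest of all members, and PSMD9 had 0.579, the lowest of the 46. These levels depend on the length used, here all exonic bases of a gene. PSMA6 has 6506 such bases against 1029 in its principal transcript, PSMA2 5336 against 1487 and PSMB7 1787 against 980. The members were not ranked by the length of the principal transcript. Each of the low alpha subunits shares a large part of its principal transcript with a read-through gene on the same strand, 53.2% for PSMA1, 52.5% for PSMA2 and 81.0% for PSMA6, as does PSMD9 with 43.8%. The headers of the table show no option to count reads that fall on more than 1 gene, and the read-through partners of these 4 genes had 0 to 2 counts a library. For these genes, and for PSMB10, the levels are those of the reads that could be assigned, and the share of PSMB10 in its pair rests on such a level.

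**Figure D5:**
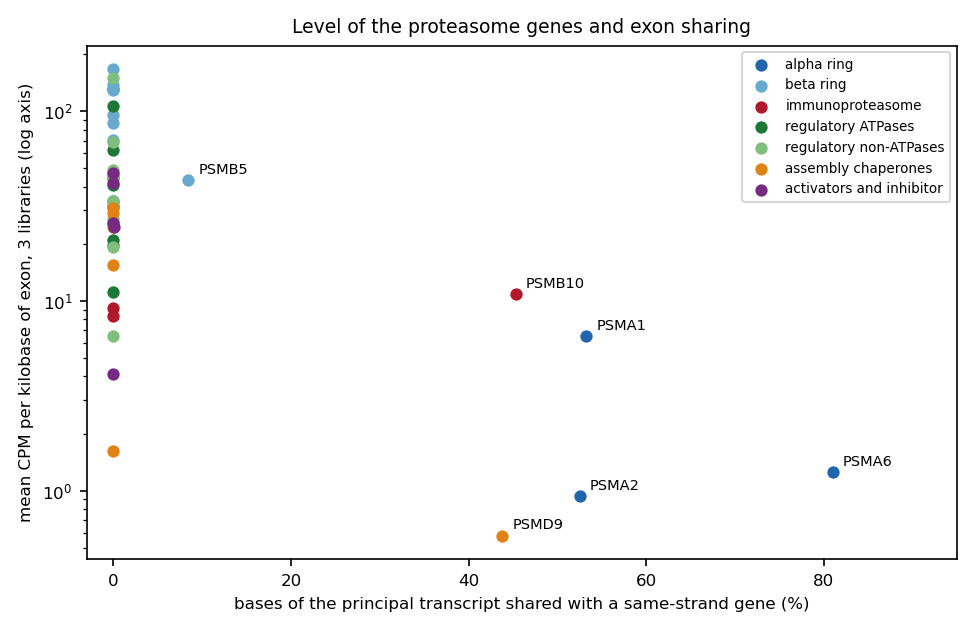
Mean level over the 3 libraries in CPM per kilobase of exon (y axis, log scale) against the percent of bases of the principal transcript shared with a gene on the same strand (x axis), for the 46 proteasome genes coloured by class. PSMA1, PSMA2, PSMA6, PSMB10 and PSMD9 share between 43.8% and 81.0% of their bases and lie between 0.579 and 10.9 CPM per kilobase. By this length the range also holds genes with no shared base, such as PSMG4 at 1.61, PSME4 at 4.12 and PSMD6 at 6.52. The length counts all exonic bases of a gene, and the levels depend on it. PSMG4 has 10418 such bases against 838 in its principal transcript, PSMD6 9123 against 1430, PSME4 10241 against 7099 and PSMA6 6506 against 1029.

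The pair of genes that share only the spelling are given apart. PSMC3IP, which encodes a meiotic recombination factor, stood at 29.5 and 19.6 CPM with the sh1 and sh2 labels, against 26.2 CPM in the control. PSME3IP1, which encodes a partner of PSME3, stood at 80.8 and 78.1 CPM with the sh1 and sh2 labels, against 83.5 CPM in the control.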

How the data were processed

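For 3 KYSE30 libraries the authors deposited 1 table of unnormalized read counts by gene. Reads were assigned by featureCounts 1.6.4 with gene models of hg38, per the file headers. The headers give strand option 1, primary alignments and no option for paired ends, multi-mapping reads or reads on more than 1 gene. The submitters' processing notes instead name TopHat2, HTSeq and hg19, and a library kit was not given in the sources used here, labels included. Genes overlapped on the opposite strand are therefore treated as uncertain. Identifiers that GENCODE 29 holds in the same version (52179) all have the same position there, so coordinates are in hg38.

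The shRNA libraries were compared with the control in R 4.3.3 by edgeR 4.0.16's quasi-likelihood F test (two-sided), after filterByExpr (17801 genes) and TMM scaling (factors 1.004, 1.003 and 0.993 for the sh1- and sh2-labelled libraries and the control). Adjustment was by Benjamini-Hochberg over all 17801 genes at 0.05. The fit had 1 residual degree of freedom, 8.35 prior degrees of freedom and a biological coefficient of variation of 26.7%. An SE is worked back from the test statistic. Single-library log2 ratios are differences of log-CPM (prior count 2) and were not tested. Ratios and shares of counts carry 95% exact intervals that cover counting error only. limma 3.58.1 and DESeq2 1.42.0 served as alternatives. Only the edgeR test was run on simulated counts, which gave the control the same variation as the shRNA libraries, and its outcome is not given here.

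The members and gene lists were chosen with earlier results of these data known. Values in all libraries are given for the catalytic pairs, activators and chaperones, and in other classes for the members with the highest and lowest ratio in either shRNA library and the most counts per kilobase. List genes are named where they have the 2 largest absolute ratios in either shRNA library. A gene that this rule names is not reported here. Genes and shares outside this rule were named after their values were seen. Protein sequences were not used here.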

Additional observations from a re-analysis of the deposited data

How the results depend on the processing

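No proteasome gene was called under any of the 5 alternative fits run, where the smallest unadjusted p of a member was between 0.252 and 0.401. Over all genes, the count called higher was 0 in the reported fit and 4 without a filter. The count called lower was 0 in the reported fit, 1 with library totals only, 37 without a filter, 14 with DESeq2 and 1 with limma-voom. Log2 fold changes near 0 changed sign: PSMB9 to 0.01 with library totals only, PSMD6 to -0.0035 without a filter and to -0.06 with limma-voom, and PSME3 to -0.02 with limma-voom. With the sh1 label, the immunoproteasome median was -0.55 for members with a mean of at least 20 CPM, -0.55 for those without opposite-strand overlap and -0.53 for those without same-strand overlap, the last added after seeing the data, each over 2 genes. Of 84 class medians under alternatives, 82 had the sign of the reported value. The other 2, both with the sh1 label, were the beta ring at -0.01 without same-strand overlap and the assembly chaperones at 0.01 for a mean of at least 20 CPM. Without opposite-strand overlap the ATPase median was 0.3 and the non-ATPase median 0.07 with the sh1 label. With the sh1 label, 0 of the 46 members were higher and 0 lower at a fold of 2, beside 3.74% and 5.58% of all genes tested. At a log2 ratio of 0.32, 8 were higher and 3 lower, beside 23.6% and 23% of all genes tested. With the sh2 label, 0 were higher and 0 lower at a fold of 2, beside 2.98% and 3.46% of all genes tested. At a log2 ratio of 0.32, 13 were lower, beside 21.4% of all genes tested. The count at least 1.5-fold higher with the sh2 label was 1 of 41 at a mean of at least 20 CPM, beside 2.69% of genes at that level. It was 1 of 29 without opposite-strand overlap and 1 of 39 without same-strand overlap, beside 9.38% of all genes tested. The count at least 1.5-fold lower with that label was 1 of 46 with library totals only, beside 9.52% of all genes tested. It was 1 of 41 at a mean of at least 20 CPM, beside 3.92%, and 1 of 39 without same-strand overlap, beside 9.92%. Between the sh1- and sh2-labelled libraries, 4 of 29 were at least 1.5-fold higher without opposite-strand overlap, beside 14.8% of all genes tested. At a fold of 2, 1 of 46 was higher, beside 5.54%. At a log2 ratio of 0.32, 23 were higher, where the third quartile of all genes tested was 0.35. Counts moved where fewer genes or another fold entered by construction; otherwise the cause was not tested. Leaving out either shRNA library leaves no residual degree of freedom, so no call could be counted. No paired analysis was possible because the control is a single library and the shRNA libraries come from lines with different shRNAs. The depth limits PSMA2, PSMA6 and PSMD9, which had 68 to 147 counts a library.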
